A study of Arabidopsis thaliana with 12 samples.

Results

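The transcripts described here are those of the chloroplast genome of Arabidopsis thaliana that encode neither a photosystem, cytochrome b6f, ATP synthase nor Rubisco subunit. They were chosen from the reference gene table: a gene had to lie on the plastid chromosome, to have a probe set tied to it alone, and to carry a symbol that did not begin with psa, psb, pet, atp or rbcL and was not ycf3 or ycf4. The rule used no measured value. It found 34 of the 69 chloroplast genes with a probe set of their own, among 13297 genes measured in this way in all. There were 10 genes for the NDH complex (ndhA, ndhC, ndhD, ndhE, ndhF, ndhG, ndhH, ndhI, ndhJ and ndhK) and 4 for the plastid RNA polymerase (rpoA, rpoB, rpoC1 and rpoC2). A further 8 encoded small-subunit ribosomal proteins (rps2, rps3, rps4, rps14, rps15, rps16, rps18 and rps19) and 7 encoded large-subunit ones (rpl14, rpl16, rpl20, rpl22, rpl32, rpl33 and rpl36). The remaining 5 were matK, clpP, accD, cemA and ccsA. Genes whose probe sets are tied to several loci (rps12, rpl2, rpl23, ycf2, ndhB, rps7 and ycf1) were not analysed here.

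The chloroplast genome holds the genes of its own expression machinery beside those of photosynthesis. The plastid-encoded polymerase is built from the rpo products and transcribes most photosynthesis genes, while a nuclear-encoded polymerase transcribes accD and the rpoB, rpoC1 and rpoC2 genes. Many chloroplast genes are transcribed together with their neighbours into long precursors that are then cut, spliced and edited. The NDH complex carries electrons from ferredoxin back to plastoquinone around photosystem I, and it is assembled from subunits of both genomes. Chloroplast mRNAs are translated on plastid ribosomes of bacterial type and mostly lack a stable poly(A) tail.

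The plants were 14-day-old whole seedlings of the line 35S:HF-RPL18B in the Col-0 ecotype. All 6 groups carried its transgene, in which the 35S promoter of cauliflower mosaic virus, active in nearly all cells, drives a His6-FLAG-tagged form of the cytosolic ribosomal protein L18B. Seedlings were taken after 1 h of darkness and 10 min of renewed light (reillumination), after 1 h of darkness, or after 1 h of light as the control, with the treatments begun halfway through the light period. Polysomal RNA came from ribosomes captured on anti-FLAG beads and total RNA from the clarified extract they were captured from, with 2 Affymetrix ATH1 arrays per RNA and condition and 12 arrays in all. The labels describe 2 independent biological replicate experiments. The design asks which transcripts change in the plant and which change in association with ribosomes when light is removed and returned. Plastid ribosomes do not contain the tagged protein, so for the chloroplast transcripts the captured RNA is not a measure of their own translation. In whole seedlings, fewer cells of a type and less RNA per cell cannot be told apart.

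Values are log2 expression, scaled so that the arrays have like distributions, and every difference is relative to the rest of the array. Replicate arrays correlated at r = 0.993 to 0.995 over all probe sets, and array medians lay between 6.04 and 6.19. Among 7 fixed shoot markers only LHCB4.2, a light-harvesting protein of photosystem II, had a probe set of its own, with values between 12.65 and 13.41. Among 8 root markers only EXPA7, a root hair expansin, did, with values between 4.45 and 5.94. For the actin control, the 3' minus the 5' probe set, a log2 sign of RNA quality, averaged 1.80, 1.65 and 1.75 in reilluminated, dark and light polysomal RNA and 1.90, 1.84 and 2.02 in the same order of total RNA. For GAPDH it averaged 1.25, 0.96 and 1.13 in reilluminated, dark and light polysomal RNA, and for ubiquitin 1.39, 1.32 and 1.47. Among the polysomal groups all 3 were lowest, as means, in darkness, the group that also carries the changes described below. In total RNA, GAPDH averaged 1.01, 1.11 and 0.91 in the same order, so that light total RNA was lower still. Ubiquitin averaged 1.57, 1.58 and 1.56 there. The control probe set for 25S rRNA of the cytosolic ribosome averaged 6.35, 6.34 and 6.73 in reilluminated, dark and light polysomal RNA, against 7.09, 7.47 and 7.07 in total RNA. The part of these differences in the results below was not tested. Errors after ± are standard errors of the limma fit with n = 2 arrays per group, and a transcript is said to have risen or fallen, or to be called, at a Benjamini-Hochberg adjusted p under 0.05 over 22746 probe sets.

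All 34 transcripts were far lower in polysomal than in total RNA, in every condition. The median difference was -4.24 on the log2 scale in reilluminated, -3.76 in dark and -4.11 in light seedlings, and over all probe sets it was 0.02, 0.02 and 0.03. Of all probe sets 14.6% were called lower and 12.7% higher in polysomal RNA of reilluminated seedlings, 11.8% lower and 11.6% higher in darkness, and 17.6% lower and 14.6% higher in light. Of the chloroplast transcripts 34 of 34 were called lower in each (largest limma adjusted p 0.00142, 0.00104 and 0.00608). In each condition both polysomal arrays lay below both total arrays for every one of the 34, as they did for 29.4% of all probe sets in reillumination, 27.2% in darkness and 31.1% in light. Leaving out any of the 12 arrays kept all 34 calls in each condition. The 35 chloroplast transcripts for photosynthesis were also all called lower, with medians of -4.05, -3.52 and -4.16 in reillumination, darkness and light. Of 11 mitochondrion-encoded transcripts 8 were called lower in each condition, with medians of -0.78, -1.20 and -0.73.

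The size of this difference varied widely between transcripts. The ribosomal protein transcript rpl22 read 5.03 and 4.96 in light polysomal RNA, against 11.01 and 11.00 in light total RNA. The polysomal arrays lay about as far below the total arrays in both replicates, a difference of -6.01 ± 0.14 or 64.3-fold. For matK, which encodes a maturase that helps splice plastid introns, the light polysomal arrays read 9.69 and 9.73, against 12.18 and 12.25 in total RNA. Its difference was -2.50 ± 0.14 or 5.68-fold, and the groups were again fully apart. The NDH membrane subunit transcript ndhC read 9.58 and 9.73 in dark polysomal RNA, against 11.62 and 11.52 in dark total RNA, which was the smallest difference of any of the 34 in darkness at -1.92 ± 0.13. By class, the median difference in light was -4.04 for ndh, -3.63 for rpo, -4.27 for rps and -4.51 for rpl transcripts, and -3.64 for matK, clpP, accD, cemA and ccsA. The light difference was -2.05 ± 0.47 for ndhF and -2.75 ± 0.49 for rps14, but both rested on 1 total array: it was -1.03 or -3.06 for ndhF, and -1.79 or -3.71 for rps14, without the first or the second light total array.

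**Figure D1:**
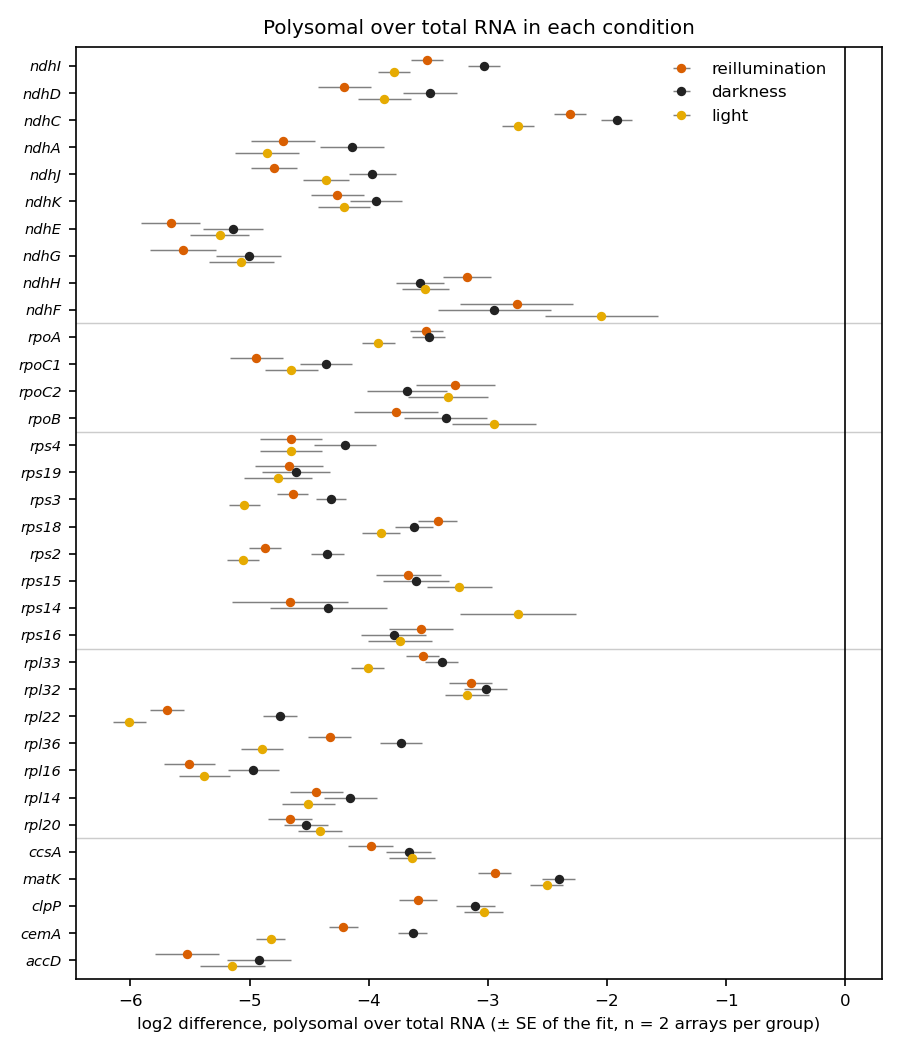
Log2 difference of polysomal over total RNA (x axis) for each of the 34 transcripts (y axis, grouped as ndh, rpo, rps, rpl and others), with points for reillumination, darkness and light and bars of ± 1 standard error of the fit (n = 2 arrays per group). All points lie left of 0, from -6.01 for rpl22 in light to -1.92 for ndhC in darkness.

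How bright a probe set was in polysomal RNA bears on how much of a further difference could be seen. In total RNA the median of the 34 was between 10.2 and 10.6 on each of the 6 arrays, and in polysomal RNA between 5.27 and 6.37. Between 15 and 19 of the 34 lay below the median of their polysomal array, and 10 lay below the lower quartile on at least 1 polysomal array: ndhE, ndhF, ndhG, ndhH, rpoB, rps14, rps15, rps16, rpl20 and accD. None of these 10 was called in polysomal RNA for darkness over light or reillumination over darkness. The share called among all probe sets this dim was not counted. With the replicate number as a block, ndhE was called in both comparisons (limma adjusted p 0.0291 and 0.0253) and accD in the second (adjusted p 0.0365). A difference of polysomal over total RNA is for such transcripts the difference to a value near the dim end of the array, and may be larger than shown.

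**Figure D2:**
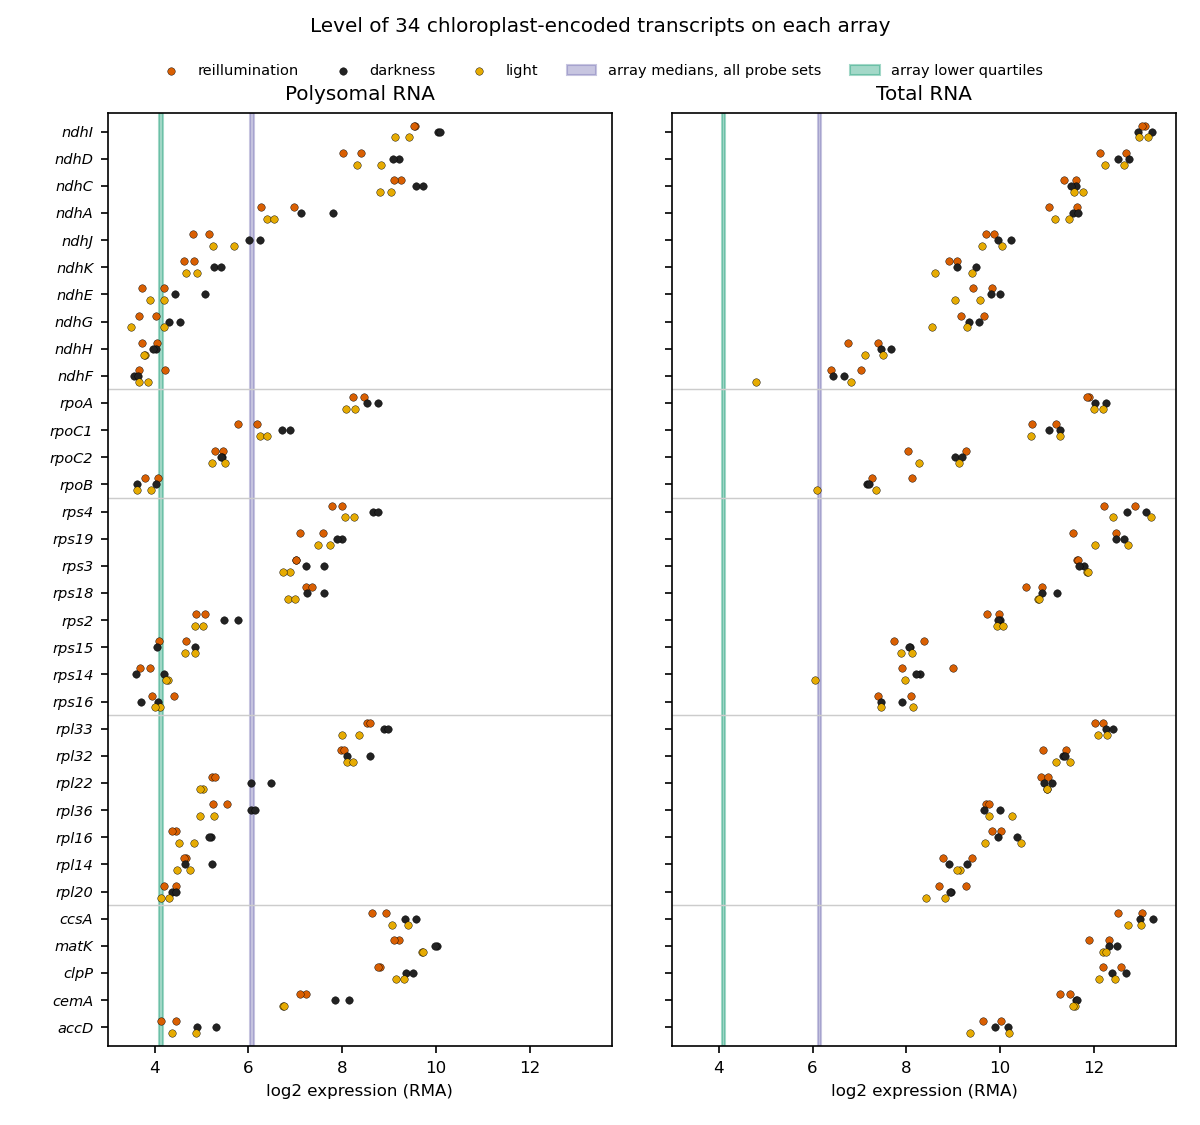
Log2 expression (x axis) of each of the 34 transcripts (y axis) on each of the 12 arrays, with polysomal RNA in the left panel, total RNA in the right panel and 1 point per array for reillumination, darkness and light. Shaded bands give the range of the array medians and of the lower quartiles over all probe sets. In polysomal RNA the dark points of many transcripts lie right of the other points, and in total RNA the points of the 3 conditions mostly overlap.

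In polysomal RNA 12 of the 34 transcripts rose in darkness over light and none fell. Of all probe sets 8.49% were called higher and 8.68% lower in this comparison. The median over the 34 was 0.49 on the log2 scale, against -0.02 over all probe sets, with 30 above 0 and a range of -0.36 to 1.27. With the replicate number as a block, 15 were called higher (ndhE, ndhK and rpl16 in addition), against 12.4% of all probe sets. Both dark arrays lay above both light arrays for 25 of the 34 and below them for 2. The same held for 25.3% (above) and 30% (below) of all probe sets. By class, 4 of 10 ndh, 1 of 4 rpo, 3 of 8 rps and 3 of 7 rpl transcripts rose, and cemA among the 5 others. The photosynthesis transcripts had 20 of 35 called higher with a median of 0.77, and the mitochondrial ones 0 of 11 with a median of 0.00.

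After 10 min of renewed light, 11 of the 34 were lower than in darkness in polysomal RNA and none was higher. Of all probe sets 3.2% were called lower and 4.62% higher. The median over the 34 was -0.59, against 0.00 over all probe sets, and 31 lay below 0. Both reilluminated arrays lay below both dark arrays for 24 of the 34 and above them for 1, against 24.6% (below) and 24.3% (above) of all probe sets. With the replicate number as a block, 19 were called lower, with ndhA, ndhE, ndhK, rps3, rps4, rpl16, accD and ccsA added, and 7.39% of all probe sets were, so the block raised both shares. Where a transcript is given below as not called, this is without the block and with all 12 arrays in the fit, unless stated. The photosynthesis transcripts had 19 of 35 called lower with a median of -0.72, and the mitochondrial ones 0 of 11 with a median of 0.04. Both comparisons use the same dark polysomal arrays, so they are not independent. They shared 7 called transcripts (cemA, ndhC, ndhI, ndhJ, rpl22, rpl36 and rps2), which is 7 of 12 and 7 of 11.

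**Figure D3:**
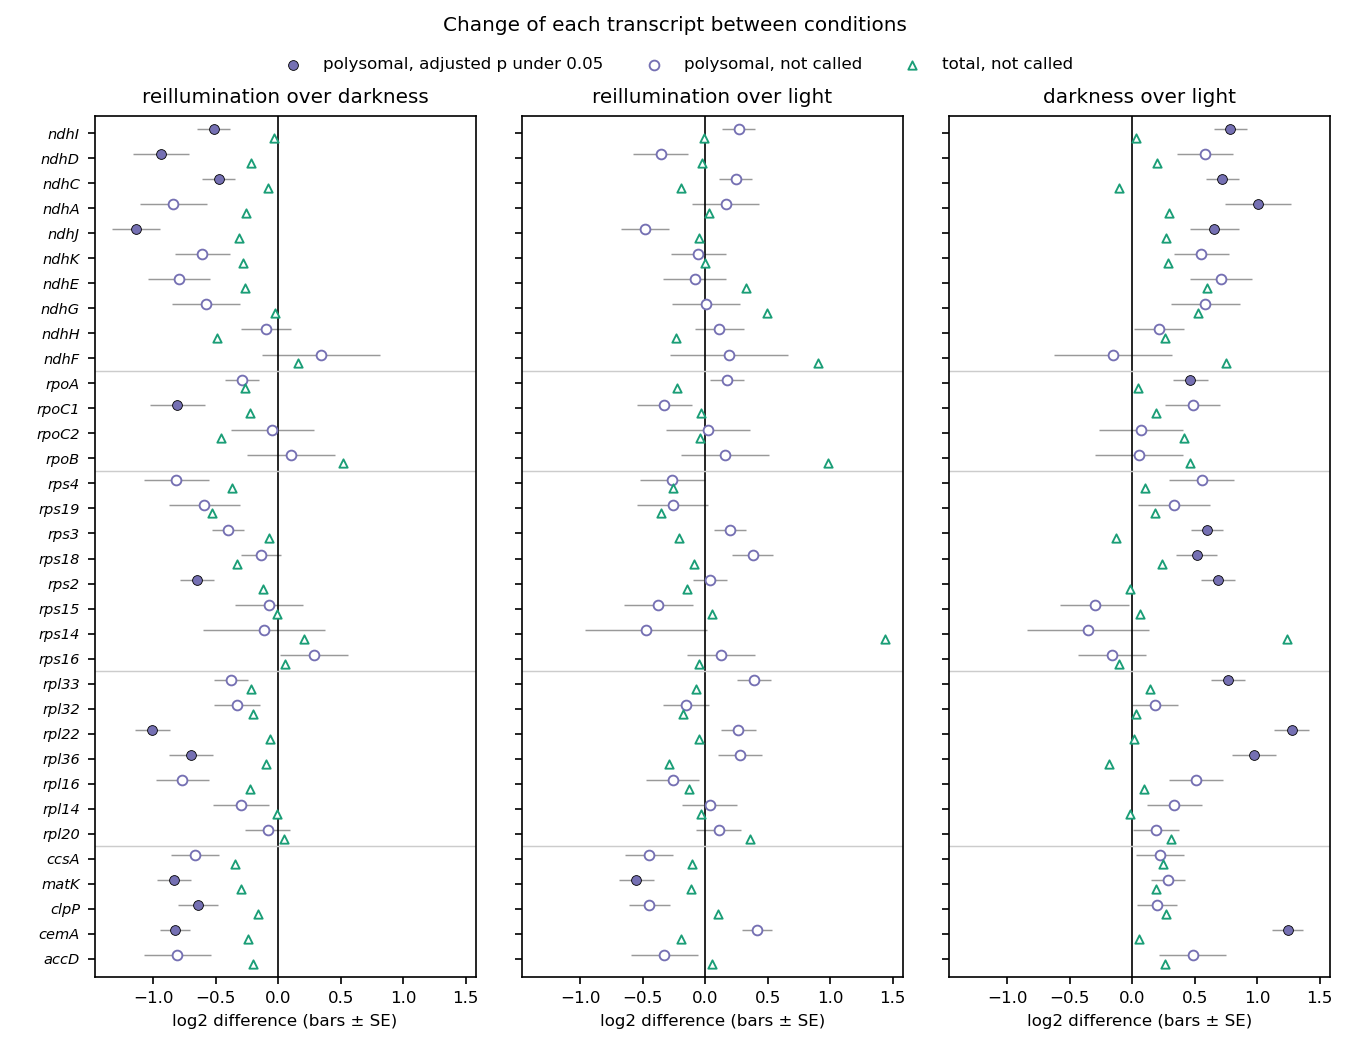
Log2 difference (x axis) of each of the 34 transcripts (y axis) for reillumination over darkness, reillumination over light and darkness over light. Circles are polysomal RNA with bars of ± 1 standard error of the fit (n = 2 arrays per group), filled where the adjusted p was under 0.05, and triangles are total RNA, where none was called. In polysomal RNA 11 circles are filled left of 0 for reillumination over darkness, 1 left of 0 for reillumination over light, and 12 right of 0 for darkness over light.

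Among the NDH transcripts, ndhI, ndhJ and ndhK encode subunits of the peripheral arm of the complex, which faces the stroma, as does ndhH. In polysomal RNA, ndhI read 9.54 and 9.53 in reilluminated, 10.03 and 10.08 in dark and 9.42 and 9.13 in light seedlings. Both dark arrays stood above the other 4. The rise in darkness was 0.78 ± 0.13 or 1.72-fold (limma adjusted p 0.00192), and the fall on reillumination was -0.52 ± 0.13 (adjusted p 0.0373). The transcript ndhJ read 5.16 and 4.81 in reilluminated, 6.01 and 6.24 in dark and 5.69 and 5.25 in light polysomal RNA. Dark arrays were again the highest, and the reilluminated arrays were below those of light. Its change on reillumination over darkness, -1.14 ± 0.19 or 2.2-fold lower (limma adjusted p 0.00591), was the largest fall among the 34, and it was 0.66 ± 0.19 higher in darkness over light (adjusted p 0.037). The transcripts ndhK and ndhH were not called, with 0.55 ± 0.22 and 0.21 ± 0.20 for darkness over light.

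The other NDH transcripts encode subunits of the membrane arm, which resembles the proton-pumping arm of respiratory complex I. In polysomal RNA, ndhA read 6.98 and 6.27 in reilluminated, 7.80 and 7.13 in dark and 6.39 and 6.54 in light seedlings. The dark arrays were highest, with the replicates apart by more than for ndhI, and those of reillumination and light overlapped. It rose by 1.00 ± 0.27 in darkness over light (limma adjusted p 0.0227). The transcript ndhC read 9.25 and 9.10 in reilluminated, 9.58 and 9.73 in dark and 8.82 and 9.05 in light polysomal RNA, with the 3 conditions fully apart. It rose by 0.72 ± 0.13 in darkness (limma adjusted p 0.00298) and fell by 0.48 on reillumination (adjusted p 0.0491). The transcript ndhD read 8.40 and 8.01 in reilluminated, 9.22 and 9.07 in dark and 8.82 and 8.31 in light polysomal RNA. The dark arrays were highest, and those of reillumination and light overlapped. It fell on reillumination over darkness by 0.94 (± 0.22, limma adjusted p 0.0271), while darkness over light, 0.58 ± 0.22, was not called (adjusted p 0.104). The dim transcripts ndhE and ndhG had differences of 0.71 ± 0.25 and 0.58 ± 0.27 in darkness over light, neither called. The dim ndhF read 3.67 and 4.23 in reilluminated, 3.56 and 3.65 in dark and 3.67 and 3.85 in light polysomal RNA, with differences of -0.15 ± 0.47 for darkness over light and 0.34 ± 0.47 for reillumination over darkness.

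Of the polymerase subunits, rpoA encodes the alpha subunit and the rpoB, rpoC1 and rpoC2 genes encode the beta and beta-prime parts of the catalytic core. In polysomal RNA, rpoA read 8.23 and 8.47 in reilluminated, 8.52 and 8.76 in dark and 8.09 and 8.27 in light seedlings. The dark arrays were the highest by a small margin, and those of reillumination and light overlapped. It rose by 0.46 ± 0.14 in darkness (limma adjusted p 0.0385), and reillumination over darkness was -0.29 ± 0.14, not called. The transcript rpoC1 read 6.19 and 5.79 in reilluminated, 6.88 and 6.71 in dark and 6.24 and 6.39 in light polysomal RNA. Its reilluminated arrays were the lowest and its dark arrays the highest. It fell on reillumination over darkness by 0.81 (± 0.22, limma adjusted p 0.045), and darkness over light was 0.48 ± 0.22, not called (adjusted p 0.173). The transcript rpoC2 read 5.29 and 5.47 in reilluminated, 5.44 and 5.42 in dark and 5.21 and 5.51 in light polysomal RNA. The transcript rpoB read 3.79 and 4.06, 4.03 and 3.62, and 3.92 and 3.63 on the same arrays. For both the 3 conditions overlapped, and their differences for darkness over light were 0.07 ± 0.33 and 0.05 ± 0.35. Of the 4 transcripts made by the nuclear-encoded polymerase (accD, rpoB, rpoC1 and rpoC2), none was called higher in darkness over light and rpoC1 was called lower on reillumination over darkness.

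The rps genes encode proteins of the small subunit of the plastid ribosome. In polysomal RNA, rps2 read 5.08 and 4.88 in reilluminated, 5.77 and 5.49 in dark and 5.02 and 4.86 in light seedlings. Both dark arrays lay above the other 4, which overlapped. It rose by 0.69 ± 0.14 in darkness (limma adjusted p 0.00496) and changed by -0.65 ± 0.14 on reillumination over darkness (adjusted p 0.0158). The transcripts rps3 and rps18 rose in darkness over light by 0.60 ± 0.13 (limma adjusted p 0.00752) and 0.51 ± 0.16 (adjusted p 0.048), and neither was called on reillumination over darkness. The transcript rps4 read 8.01 and 7.78 in reilluminated, 8.66 and 8.77 in dark and 8.25 and 8.07 in light polysomal RNA. The 3 conditions did not overlap, but its differences, 0.55 ± 0.26 for darkness over light and -0.82 ± 0.26 for reillumination over darkness, were not called (limma adjusted p 0.188 and 0.0812). With only the polysomal arrays in the fit, both were called (limma adjusted p 0.0235 and 0.0156). For rps19 the differences were 0.33 ± 0.29 and -0.59 ± 0.29. The dim rps14, rps15 and rps16 differed by -0.36, -0.30 and -0.16 in darkness over light, and with ndhF they were the 4 transcripts below 0.

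The rpl genes encode proteins of the large subunit, and they held the largest rise in darkness. In polysomal RNA, rpl22 read 5.22 and 5.29 in reilluminated, 6.05 and 6.49 in dark and 5.03 and 4.96 in light seedlings. The dark arrays stood well above the others, and those of reillumination lay just above those of light. It rose by 1.27 ± 0.14 or 2.42-fold in darkness (limma adjusted p 0.00012) and was 2.01-fold lower on reillumination than in darkness (-1.01 ± 0.14, adjusted p 0.00227). The transcript rpl36 read 5.25 and 5.54 in reilluminated, 6.05 and 6.14 in dark and 5.27 and 4.97 in light polysomal RNA. Its dark arrays were the highest and the rest overlapped. It rose by 0.97 ± 0.18 in darkness (limma adjusted p 0.00291) and changed by -0.70 ± 0.18 on reillumination over darkness (adjusted p 0.0353). The transcript rpl33 read 8.53 and 8.59 in reilluminated, 8.90 and 8.98 in dark and 8.35 and 7.99 in light polysomal RNA, so that the 3 conditions were apart with reillumination in the middle. It rose by 0.76 ± 0.14 in darkness (limma adjusted p 0.00255), and reillumination over darkness, -0.38 ± 0.14, was not called (adjusted p 0.124). The transcripts rpl14, rpl16, rpl20 and rpl32 were not called in either comparison. Their differences for darkness over light were 0.33, 0.51, 0.19 and 0.18.

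The remaining 5 genes have separate roles. The cemA product is an envelope membrane protein, and its transcript read 7.22 and 7.11 in reilluminated, 8.13 and 7.85 in dark and 6.74 and 6.76 in light polysomal RNA. The 3 conditions were fully apart, with darkness the highest and reillumination in the middle. It rose by 1.24 ± 0.12 or 2.36-fold in darkness (limma adjusted p 5.66e-05) and was 1.78-fold lower on reillumination than in darkness (-0.83 ± 0.12, adjusted p 0.00307). The transcript matK read 9.22 and 9.10 in reilluminated, 10.02 and 9.98 in dark and 9.69 and 9.73 in light polysomal RNA. Here the reilluminated arrays were the lowest of the 3 conditions. It was 1.79-fold lower on reillumination than in darkness (-0.84 ± 0.14, limma adjusted p 0.005), and darkness over light was 0.29 ± 0.14, not called (adjusted p 0.198). The transcript clpP, for the proteolytic subunit of the plastid Clp protease, read 8.82 and 8.76 in reilluminated, 9.35 and 9.52 in dark and 9.32 and 9.16 in light polysomal RNA. The reilluminated arrays were again the lowest, and dark and light arrays were close. It changed by -0.64 ± 0.16 on reillumination over darkness (limma adjusted p 0.034) and by 0.20 ± 0.16 in darkness over light (adjusted p 0.498, not called). The transcript accD, for a subunit of the plastid acetyl-CoA carboxylase of fatty acid synthesis, read 4.46 and 4.13 in reilluminated, 5.31 and 4.90 in dark and 4.87 and 4.38 in light polysomal RNA. Neither 0.48 ± 0.27 in darkness over light nor -0.81 ± 0.27 on reillumination over darkness was called. For ccsA, which serves haem attachment to c-type cytochromes, these differences were 0.22 ± 0.19 and -0.67 ± 0.19 (limma adjusted p 0.522 and 0.0554).

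With 2 arrays per group, many of these calls were lost when a single array was left out. Leaving out an array weakens the test for every probe set. The share of all probe sets called in these reduced fits was not counted. For darkness over light in polysomal RNA the count was 6 without light replicate 2 and 8 without dark replicate 2, and cemA, ndhC, ndhI, rpl22, rpl33 and rpl36 were called whichever of the 12 arrays was left out. For reillumination over darkness it was 2 without reilluminated replicate 2, 4 without dark replicate 2, 5 without dark replicate 1 and 7 without reilluminated replicate 1, and only cemA and rpl22 were called in every case. With all 12 arrays in the fit, the polysomal transcript of LHCB4.2 moved the other way, by -0.34 in darkness over light and 0.41 on reillumination over darkness (limma adjusted p 0.0453 and 0.0373). The root marker EXPA7 changed by 0.08 and 0.09 in the same order, not called. The share of shoot or root in the captured RNA was not tested.

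Between reilluminated and light seedlings, the polysomal level of 1 of the 34 differed. This was matK, which was lower after reillumination, at -0.55 ± 0.14 on the log2 scale (limma adjusted p 0.0271). Of all probe sets 4.1% were called lower and 4.78% higher. The call was lost without either light or either reilluminated polysomal array (adjusted p 0.0714 to 0.155). The median over the 34 was 0.03, with 19 above 0, against -0.01 over all probe sets. By class the median was 0.06 for ndh, 0.09 for rpo, -0.11 for rps and 0.10 for rpl transcripts, and -0.45 for the 5 others. Both reilluminated arrays lay above both light arrays for 7 of the 34 and below them for 9, against 22.9% (above) and 25.7% (below) of all probe sets, which is about the same share. With the replicate number as a block, 4 were called, cemA and rps18 higher and matK and clpP lower, against 7.69% of all probe sets higher and 7.3% lower.

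In total RNA none of the 34 was called in any comparison of conditions. For darkness over light, 4.38% of all probe sets were called higher and 5.07% lower, with 4879 of 22746 at an unadjusted p under 0.05. The median over the 34 was 0.19, with 28 above 0, against -0.02 over all probe sets, with 10244 of 22746 above 0. Of the 34, 2 had an unadjusted p under 0.05, a smaller share than over all probe sets. Both dark arrays lay above both light arrays for 8 of the 34 and below them for 1, against 20.2% (above) and 27.5% (below) of all probe sets. For reillumination over darkness limma called 0% of all probe sets in either direction, with 980 at an unadjusted p under 0.05. There the median over the 34 was -0.21, with 29 below 0 and 2 at an unadjusted p under 0.05. Over all probe sets it was 0.02, with 10188 of 22746 below 0. Both reilluminated arrays lay below both dark arrays for 8 of the 34 and above them for 1, against 12.5% (below) and 18.9% (above) of all probe sets. For reillumination over light, 4.07% of all probe sets were called higher and 3.84% lower, with 4420 of 22746 at an unadjusted p under 0.05. The median over the 34 was -0.05, again with 2 at an unadjusted p under 0.05, a smaller share than over all probe sets. The transcripts with the largest polysomal rises in darkness stood close together in total RNA. There, cemA read 11.26 and 11.50 in reilluminated, 11.62 and 11.63 in dark and 11.59 and 11.56 in light seedlings, and rpl22 read 10.87 and 11.03, 11.10 and 10.93, and 11.01 and 11.00 on the same arrays. The reilluminated arrays were the lowest for cemA, and for rpl22 the conditions overlapped. For darkness over light these are differences of 0.05 ± 0.12 and 0.01 ± 0.14.

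A few transcripts of total RNA depended on 1 array. In total RNA, rps14 read 8.99 and 7.91 in reilluminated, 8.28 and 8.21 in dark and 7.97 and 6.05 in light seedlings. The transcript ndhF read 7.02 and 6.39, 6.68 and 6.43, and 6.82 and 4.79 on the same arrays, and rpoB read 8.13 and 7.27, 7.16 and 7.20, and 7.34 and 6.09. For all of them the second light array was the lowest of the 6. Without light replicate 1 of total RNA, rps14 and ndhF were called higher in darkness over light (limma adjusted p 0.00649 and 0.00479), and they and rpoB were called higher in reillumination over light. With the replicate number as a block, rps14 was called higher in darkness over light (adjusted p 0.0408), and rps14 and rpoB in reillumination over light, with 6.9% and 6.67% of all probe sets called higher in these blocked comparisons.

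**Figure D4:**
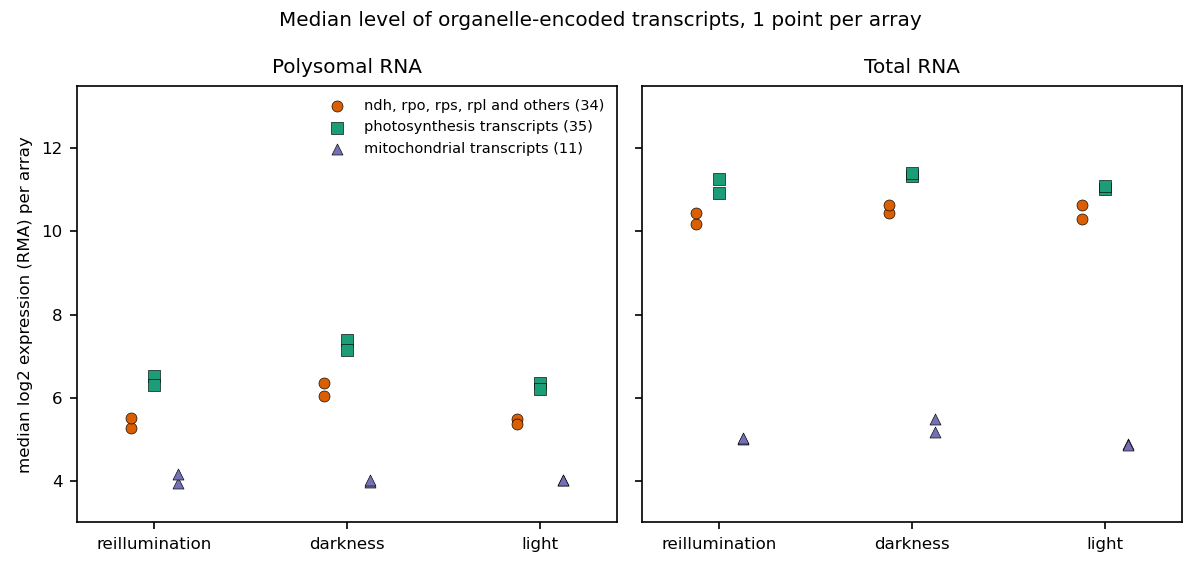
Median log2 expression (y axis) on each array of the 34 transcripts, of the 35 chloroplast transcripts for photosynthesis and of the 11 mitochondrial transcripts, by condition (x axis), with polysomal RNA in the left panel and total RNA in the right panel. Each point is 1 array. In polysomal RNA the dark arrays of the 34 lie at 6.05 and 6.37, above the reilluminated arrays at 5.27 and 5.50 and the light arrays at 5.48 and 5.38.

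Whether the polysomal change exceeded the change in total RNA was tested with the log2 ratio of polysomal to total RNA. In darkness over light this ratio rose for 2 of the 34, cemA by 1.19 ± 0.17 (limma adjusted p 0.0242) and rpl22 by 1.26 ± 0.20 (adjusted p 0.0298). Of all probe sets 0.334% were called higher and 0.752% lower. The median over the 34 was 0.27, with 24 above 0. Both calls were lost without any one of 7 arrays: either dark polysomal, the second dark total, either light polysomal or either light total array (adjusted p 0.0518 to 0.121). With the replicate number as a block, ndhC, ndhI, rpl36, rps2 and rps3 joined them, which makes 7, against 3.78% of all probe sets. On reillumination over darkness 0.145% of all probe sets were called lower and 0.849% higher, with 3218 of 22746 at an unadjusted p under 0.05. None of the 34 was called, with 8 at an unadjusted p under 0.05 and a median of -0.41. The nearest was rpl22 at -0.94 ± 0.20 (limma adjusted p 0.0515), which was called with the replicate block (adjusted p 0.0122), as were 1.63% of all probe sets in this direction. For reillumination over light limma called 0% of all probe sets, with 621 at an unadjusted p under 0.05, 8 of them among the 34.

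Genes that lie next to each other in the plastid genome were then set side by side, from their order in the reference gene table. That order carries no strand, so the genes of a run need not share a transcript. The cemA gene lies between ycf4, for a photosystem I assembly factor, and petA, for cytochrome f. In polysomal RNA of darkness over light, ycf4 changed by 1.45 ± 0.13 and petA by 1.11 ± 0.12, on either side of the 1.24 of cemA, and on reillumination over darkness by -1.17 and -0.68, against -0.83 for cemA. The run of rpoA, rpl36, rpl14, rpl16, rps3, rpl22 and rps19 ranged from 0.33 to 1.27 for darkness over light, with 4 of 7 called. Next to rpoA, petB, for cytochrome b6, changed by 1.13 ± 0.15 and petD by -0.04 ± 0.51. The run of ndhJ, ndhK and ndhC ranged from 0.55 to 0.72, with 2 of 3 called. The run of rps2, rpoC2, rpoC1 and rpoB ranged from 0.05 to 0.69 with 1 called, and that of rpl33, rps18, rpl20 and clpP from 0.19 to 0.76 with 2 called. The run of ndhE, ndhG, ndhI, ndhA, ndhH and rps15 held both -0.30 and 1.00, with 2 of 6 called. The rps14 gene is transcribed with psaA and psaB, the core of photosystem I. While psaA and psaB changed by 1.82 ± 0.24 and 1.10 ± 0.21 in polysomal RNA of darkness over light, the dim rps14 probe set changed by -0.36 ± 0.49.

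Nuclear genes for the same complexes were measured on the same arrays, though few of them had a probe set of their own. Of 18 listed nuclear NDH genes 4 were measured, and 2 fell in darkness over light in polysomal RNA. The transcript AT2G04039 changed by -1.43 ± 0.16 (limma adjusted p 0.00012) and NdhL by -0.95 ± 0.19 (adjusted p 0.0051), while NdhN and NdhS, at -0.33 and -0.46, were not called. On reillumination over darkness AT2G04039 rose by 0.57 ± 0.16 (limma adjusted p 0.0483) and the other 3 were not called. Of 40 listed nuclear genes for plastid ribosomal proteins 10 were measured. In darkness over light 3 of them fell in polysomal RNA, AT5G65220 by 1.21, AT4G17560 by 1.04 and AT1G29070 by 0.91, and AT5G24490 rose by 0.94. The same 3 rose on reillumination over darkness, by 0.86, 0.70 and 0.68. Of 14 listed genes of the Clp protease 5 were measured, and CLPP4 rose by 0.32 ± 0.10 and AT1G68660 changed by -1.01 ± 0.24 in polysomal RNA of darkness over light, with CLPP4 at -0.42 ± 0.10 on reillumination over darkness. Of 20 listed factors of plastid transcription only AT5G15700 was measured, at -0.23 and 0.00 in these comparisons, not called. Of 9 listed factors of NDH assembly or of ndh transcripts 3 were measured and none was called in these comparisons. In total RNA of darkness over light, CRR21, a factor for editing of ndhD transcripts, was lower at -0.90 ± 0.14 (limma adjusted p 0.00174), with the ndhD transcript itself at 0.20, not called. In total RNA the nuclear NdhN and AT2G04039 were also lower in darkness over light, at -0.48 and -0.63. None of the 4 listed nuclear genes of the plastid acetyl-CoA carboxylase had a probe set of its own.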

How the data were processed

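Per the submitters' processing notes, the authors made the deposited log2 expression values with RMA in affy, whose versions are not given in the sources used here. Its steps are a background correction, quantile normalization across arrays and a summary per probe set. The genome build is not given in the sources used here, and coordinates are left out. RNA was extracted in a buffer with cycloheximide and chloramphenicol, per the labels' protocols. Of 22810 probe sets 64 controls were set aside. The platform annotation pairs 13513 probe sets with 1 gene, of which 13436 matched the reference gene table, and 18 mitochondrial probe sets were matched by symbol. Each of the 34 transcripts had 1 probe set.

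The 12 arrays were fitted together in limma 3.58.1 (R 4.3.3), with a mean for each of the 6 groups (6 residual and 5.48 prior degrees of freedom), with two-sided tests, Benjamini-Hochberg adjustment over 22746 probe sets and a threshold of 0.05. The fit was tested on simulated data. The median standard error was 0.134 for a difference of groups and 0.189 for a change of ratio. Arrays have no counting depth, and their number limits the precision. Figures used Python 3.11.15 and matplotlib 3.10.9.

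Replicate numbers are the same in all groups, total and polysomal RNA come from 1 extract, and the labels speak of replicate experiments. Differences of replicate 1 minus 2 correlated between groups at r = 0.290 to 0.509 over all 15 pairs and all probe sets, so the numbers were taken to pair the arrays. Over the 34 transcripts alone these correlations ran from -0.463 to 0.706. They were negative for most pairs of a total with a polysomal group. For every pair of groups of the same RNA they were positive, from 0.11 to 0.706. The block is therefore given beside the fit without it. Alternatives were the replicate block, 2 other scalings, fewer arrays in the fit, another prior, a filter on the mean over all arrays and each array left out. The members and lists were chosen with earlier results of these data known. All 34 are named. Values are given in full for up to 8 called transcripts of largest change per comparison of conditions. The same was done for rpoA, rpoB, rpoC1, rpoC2, matK, clpP, accD, ndhF, ndhJ and the rps and rpl transcript of highest mean, rps4 and rpl33. For polysomal over total RNA, where all 34 were called, array values are given with that result for rpl22, matK and ndhC only. Of other genes at most 4 per list and comparison are named among those called. Listed genes that were few and not called, and genes next to a member, are named beside them. The reference gene table gives no strand.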

Additional observations from a re-analysis of the deposited data

Results flagged for a closer look

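For 2 of the 34 transcripts the response to darkness differed between the RNA pools by a test of the difference itself in limma. This fit took total and polysomal arrays as independent, though both RNAs come from 1 extract. Their differences of replicate 1 minus 2 correlated at r = 0.486 in darkness and 0.295 in light over all probe sets. Over the 34 these were -0.211 and -0.125. The polysomal-to-total ratio of cemA was higher in darkness than in light by 1.19 in log2 units (adjusted p 0.0242), and that of rpl22 by 1.26 (adjusted p 0.0298). For cemA the polysomal level changed by 1.24 and the total level by 0.05, and for rpl22 by 1.27 and 0.01. Without any one of 7 of the 12 arrays, named with the result above, both missed the threshold.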

How the results depend on the processing

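No called difference of the 34 transcripts changed sign under any alternative. With the replicate block the count of transcripts called moved by more than 1.5 times in 6 comparisons. It was 1 for darkness over light in total RNA, 19 for reillumination over darkness in polysomal RNA, and 2 in total and 4 in polysomal RNA for reillumination over light. For the change of the polysomal-to-total ratio it was 7 for darkness over light and 1 for reillumination over darkness. The block changed no other count by this much, and gave 15 for darkness over light in polysomal RNA. A trended robust prior gave 2 for reillumination over light in polysomal RNA, and 5 and 1 for the 2 changes of ratio. Leaving out probe sets with a mean over all arrays, total and polysomal, under 6.11 (29 transcripts kept) gave 2, 6 and 1. This filter kept transcripts that were bright in total RNA but dim in polysomal RNA. Among them, ndhE and ndhG had means of 6.94 and 6.65 over all arrays, but 4.26 and 4.04 over the polysomal arrays. The filter therefore could not test the part played by dim values in polysomal RNA. Centring arrays on their medians gave 9 for darkness over light and 8 for reillumination over darkness in polysomal RNA, and centring on nuclear genes 11 and 9. Fitting only the polysomal arrays gave 14 and 12. It added ndhK, rpl16 and rps4 to both comparisons, and lost rpoA from the first and ndhC and ndhI from the second. With 1 array left out, the count ranged from 0 to 2 for darkness over light and 0 to 3 for reillumination over light in total RNA. In polysomal RNA it ranged from 6 to 13 for darkness over light, from 2 to 14 for reillumination over darkness and from 0 to 2 for reillumination over light. For the change of ratio in darkness over light it ranged from 0 to 4, and it was 0 throughout for the other 2 changes of ratio and for reillumination over darkness in total RNA. All 34 stayed called for polysomal over total RNA in each condition with any array left out. Apart from the block, the share of all probe sets called under each alternative was not counted. A move of these counts therefore cannot be told apart from a move over the whole array. The causes of these moves were not tested, beyond the smaller number of arrays or probe sets. With 1 array left in a group, that array is assumed to vary like the other groups. Probe sets near the dim end of the polysomal arrays limit what could be seen there.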

Other observations

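Transcripts called in polysomal RNA for darkness over light or reillumination over darkness lay both above and below the mean array median. None of them was among the 10 below the lower quartile on at least 1 polysomal array. Of the 16 transcripts whose mean over the 6 polysomal arrays was at or above the mean array median (6.07), 8 were called higher in darkness over light and 7 lower in reillumination over darkness. Of the 18 dimmer transcripts it was 4 and 4. The shares called among all bright or all dim probe sets were not counted, so the split has no background to set it against. The median of darkness over light was 0.53 for the brighter and 0.41 for the dimmer transcripts. The median difference of polysomal over total RNA in light was -3.91 for the brighter and -4.38 for the dimmer.

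Replicate arrays differed more for these transcripts in total than in polysomal RNA in 2 of the 3 conditions. The median gap between replicates was 0.45 in total against 0.23 in polysomal RNA of reilluminated seedlings and 0.40 against 0.20 in light, and it was 0.23 in both RNAs of dark seedlings. No transcript had a gap over 1 in a polysomal group, while rps14, ndhF and rpoB did in light total RNA and 2 transcripts, with rpoC2 the largest at 1.23, in reilluminated total RNA.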
